A study of Mus musculus with 3 samples.

Results

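The colony-stimulating factors and their receptors comprise 8 of the 23234 genes in the tables and were taken by symbol: the ligand genes Csf1, Csf2 and Csf3 and the receptor genes Csf1r, Csf2ra, Csf2rb, Csf2rb2 and Csf3r. All 8 had a row. Their mRNA was measured by RNA-seq in 3 cell populations sorted from wild-type C57BL/6J mice aged 6 to 15 weeks, each of which had received lipopolysaccharide (LPS), the bacterial cell wall component, in both nostrils (10 µg in 10 µL PBS). Double-positive cells (DP) were CD45+Ly6G+SiglecF+ cells of the nose 2 days after LPS. Nasal neutrophils were CD45+Ly6G+SiglecF- cells of the nose 1 day after LPS. The same gate applied to peripheral blood, also at 1 day, gave the blood neutrophils. Each group was 1 library, no animals without LPS were analysed here, and the number of animals behind a library is not given in the sources used here. Replicate error is therefore unknown for every difference, and none was tested. Day and gate differed together between DP and the others, and their parts cannot be told apart.

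Colony-stimulating factors are secreted proteins that drive the production, survival and activation of myeloid cells. Csf3 encodes G-CSF, the main factor of neutrophil production, and Csf3r its receptor. Csf2 encodes GM-CSF, which binds the alpha subunit encoded by Csf2ra together with the common beta subunit encoded by Csf2rb. In mice the common beta subunit also serves interleukin-3 and interleukin-5, and Csf2rb2 encodes a second beta subunit that serves interleukin-3 alone. Csf1 encodes M-CSF, a survival factor of monocytes and macrophages, and Csf1r its receptor tyrosine kinase. G-CSF and GM-CSF receptors signal through JAK2 and the STAT3 and STAT5 factors, which induce SOCS feedback inhibitors.

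ATTTA copies were densest in the 3′ UTRs of the ligand genes Csf2 and Csf3. AU-rich elements, built on the pentamer ATTTA in the 3′ UTR, are known to shorten the life of cytokine mRNAs, and the windows with the most copies in the ligand mRNAs are shown to let their density be compared. They come from the longest coding GENCODE M21 transcript of each gene (GRCm38), 5′ to 3′ on the sense strand, with ATTTA in capitals.
Csf2: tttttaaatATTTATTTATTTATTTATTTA
Csf3: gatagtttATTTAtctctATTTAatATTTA
Csf1: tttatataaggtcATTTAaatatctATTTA
Csf2 held 9 copies in a 3′ UTR of 317 nt, Csf3 held 6 in 669 nt and Csf1 held 4 in 2111 nt. Per length, the Csf2 3′ UTR was denser in ATTTA than 99.9% of the 20952 genes with a 3′ UTR and that of Csf3 denser than 98.4%, while that of Csf1 was denser than 62.5%. Of the receptor genes, Csf1r held 3 copies in 1669 nt, and Csf2ra, Csf2rb, Csf2rb2 and Csf3r held 0. Of all these genes, 64.7% had at least 1 copy.

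The RefSeq promoter table (GRCm38.p6) held windows for 5 of the 8 members, and 6 motifs were searched on both strands in the 250 bases before the start. The window of Csf1, the ligand gene with the highest level, is shown with its match to the 10-base NF-kappaB consensus in capitals. Those of 3 receptor genes are shown with the PU.1 core GAGGAAG, in either strand, in capitals. PU.1 is a transcription factor of the myeloid lineage. These windows lie at chr3:107760470-107760719 (minus strand), chr4:126024409-126024658 (plus strand), chr19:61228419-61228668 (minus strand) and chr15:78305722-78305971 (minus strand), in the order shown.
Csf1: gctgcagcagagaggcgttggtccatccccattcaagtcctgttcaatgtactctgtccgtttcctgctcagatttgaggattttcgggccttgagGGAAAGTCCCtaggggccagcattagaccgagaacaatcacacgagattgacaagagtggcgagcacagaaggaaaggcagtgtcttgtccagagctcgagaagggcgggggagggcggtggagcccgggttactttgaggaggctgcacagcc
Csf3r: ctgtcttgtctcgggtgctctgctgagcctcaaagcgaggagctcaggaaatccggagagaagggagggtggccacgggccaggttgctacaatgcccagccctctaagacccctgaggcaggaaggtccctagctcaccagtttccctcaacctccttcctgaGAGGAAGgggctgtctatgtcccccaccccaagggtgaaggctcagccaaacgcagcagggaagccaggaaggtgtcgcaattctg
Csf2ra: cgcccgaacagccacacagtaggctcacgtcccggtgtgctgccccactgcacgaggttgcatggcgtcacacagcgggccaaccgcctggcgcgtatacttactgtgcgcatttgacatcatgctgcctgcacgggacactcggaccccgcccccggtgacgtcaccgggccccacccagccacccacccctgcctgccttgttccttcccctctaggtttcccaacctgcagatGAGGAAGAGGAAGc
Csf2rb2: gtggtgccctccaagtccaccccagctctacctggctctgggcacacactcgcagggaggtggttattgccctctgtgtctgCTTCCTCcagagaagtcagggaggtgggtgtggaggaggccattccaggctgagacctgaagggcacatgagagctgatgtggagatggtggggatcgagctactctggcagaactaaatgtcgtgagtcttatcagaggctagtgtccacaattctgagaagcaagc
GAGGAAG was found in 3 of 3 receptor windows and in 0 of 2 ligand windows, and in 10.6% of all 32851 windows. Csf2ra held 2 overlapping copies. The NF-kappaB consensus was found in the windows of Csf1 and Csf3r, and in 7.25% of all. C/EBP (TTNNGCAA, 9.56% of all windows) matched in Csf2 and STAT (TTCNNNGAA, 7.02%) in Csf2rb2. CK-1 (GAGATTCC, 0.755%) and AP-1 (TGANTCA, 6.75%) matched in none of the 5 windows. The matches were not tested for binding.

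The 2 beta subunit genes are close copies, which bears on how their values can be read. Their coding sequences were identical at 95.2% of 2631 aligned bases. The stretch from coding base 24 to 83 is shown as one with about that identity, with the 3 bases that differ in capitals (GENCODE M21, sense strand).
Csf2rb: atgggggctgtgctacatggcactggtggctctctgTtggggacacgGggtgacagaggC
Csf2rb2: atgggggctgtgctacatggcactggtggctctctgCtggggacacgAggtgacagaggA
Of all 50-base pieces of the Csf2rb transcript, 18.4% were also found whole in Csf2rb2, and 19.0% the other way round. How reads that fit both were counted is not given in the sources used here, so the division of reads between these 2 genes is uncertain, and their sum is given beside them.

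Values are FPKM, fragments scaled for transcript length and library depth, so they can be compared between genes. Differences are on the log2(FPKM + 1) scale, which understates those of low genes. Counts at 4-fold and 2-fold use that scale, so a low gene can pass the fold by plain FPKM and not be counted. Genes with a mean of 1 FPKM or more over the 3 libraries were compared (10719 genes), and 7 of the 8 members passed, all but Csf2. Steps between low values showed that 1 FPKM on a 1-kb transcript stood for about 54.8 fragments in DP, 12.8 in nasal and 54.4 in blood neutrophils, so low values are least precise in nasal neutrophils. Of the gate genes, Ptprc (CD45) had 445.1 FPKM in DP, 136.7 in nasal and 718.8 in blood neutrophils, and Siglec5, the tables' symbol for the SiglecF gene, had 167.8, 9.92 and 18.7 FPKM. Ly6g was not analysed here. The 10 neutrophil markers summed to 12316 FPKM in DP, 58174 in nasal and 78465 in blood neutrophils. Of these, 6 were at least 4-fold lower in DP than in nasal neutrophils, against 3.62% of all genes compared, and the part of that in the receptor values was not tested. All 10 were above 0 in every library except S100a8, listed at 0 in blood, an abundant neutrophil gene so a listed 0 may be a failed estimate. S100a8 supplied 7656 FPKM of the sum in DP and 29818 of that in nasal neutrophils. These 2 sums are therefore not like for like with that of blood. Whether fewer cells of a type or less RNA per cell underlie a lower level cannot be told apart in such bulk samples.

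**Figure D1:**
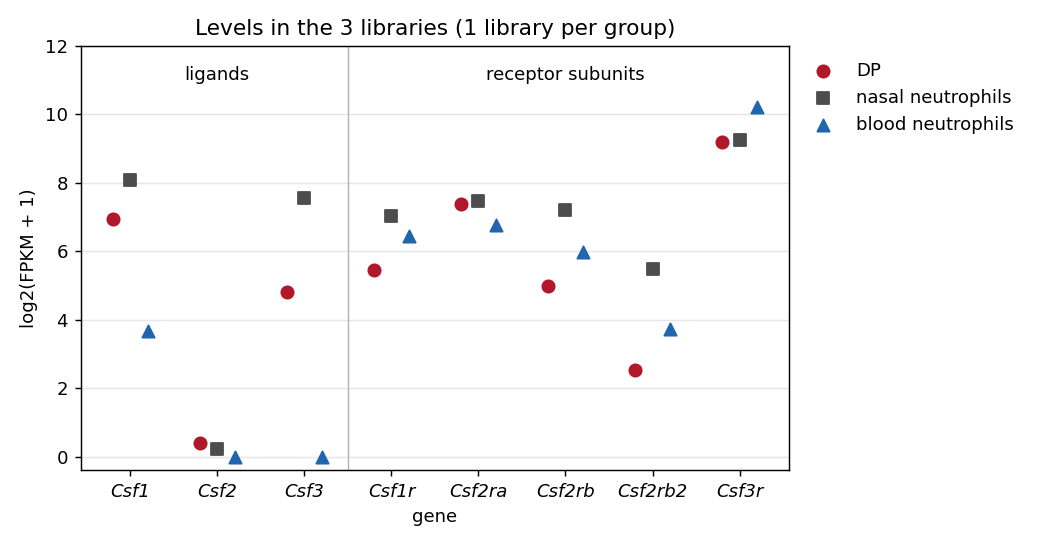
Level of each family member as log2(FPKM + 1), with DP, nasal and blood neutrophils from left to right and 1 point per library. Csf3r is the highest member in all 3 libraries, Csf1 and Csf3 are highest in nasal neutrophils, and Csf2 is near 0 throughout.

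Csf3r was the most abundant member in each library. It stood at 581.4 FPKM in DP, 606.8 in nasal and 1180 in blood neutrophils, ranking 168, 151 and 75 among the 23234 genes. DP and nasal neutrophils were nearly level (log2 difference -0.06, or 0.21 with a correction for transcript length), and both lay about 1 log2 unit under blood (-1.02 for DP and -0.96 for nasal neutrophils). Csf2ra was second in DP and blood and stood at 165.1 FPKM in DP, 177.7 in nasal and 107.7 in blood neutrophils. It was the receptor gene that varied least, within 1.65-fold between any 2 libraries.

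The beta subunit genes set DP and nasal neutrophils apart. Csf2rb stood at 30.9 FPKM in DP, 146.0 in nasal and 62.0 in blood neutrophils, 4.73-fold lower in DP than in nasal neutrophils (log2 difference -2.20). Csf2rb2 had 4.80, 43.5 and 12.1 FPKM in the same order and was 9.06-fold lower in DP than in nasal neutrophils (-2.94). For both, nasal neutrophils were highest, blood neutrophils intermediate and DP lowest. Summed, they stood at 35.7 FPKM in DP, 189.5 in nasal and 74.1 in blood neutrophils. The log2 difference of DP over nasal neutrophils was -2.38, so the direction does not rest on how reads were divided between them. The ratio of Csf2rb to Csf2ra was 0.187 in DP, 0.822 in nasal and 0.576 in blood neutrophils. With both beta genes summed, the ratio to Csf2ra was 0.216, 1.07 and 0.689.

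Csf1r stood at 42.4 FPKM in DP, 130.7 in nasal and 85.9 in blood neutrophils, 3.08-fold lower in DP than in nasal neutrophils (log2 difference -1.60). Its order across libraries was that of the beta subunit genes. Macrophages and monocytes carry Csf1r, and their 15 markers, all with a row, summed to 437.8 FPKM in DP, 722.9 in nasal and 484.2 in blood neutrophils. That order rested on Ly6c2 (10.4, 261.7 and 168.1 FPKM): without it the sums were 427.4 FPKM in DP, 461.2 in nasal and 316.1 in blood neutrophils. Of the 15, 14 were lower in DP than in nasal neutrophils, as Csf1r was. Against blood, 10 of 15 were higher in DP, and the median log2 difference of the 10 that passed the filter was 1.498, whereas Csf1r was 2.03-fold lower in DP than in blood. In blood neutrophils, 7 of the 15 were listed at 0 (C1qa, C1qb, C1qc, Mrc1, Mertk, Marco and Siglec1), while Csf1r stood at 85.9 FPKM there. Marco and Siglec1 were listed at 0 in DP. The part of macrophages or monocytes in the Csf1r values was not tested.

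**Figure D2:**
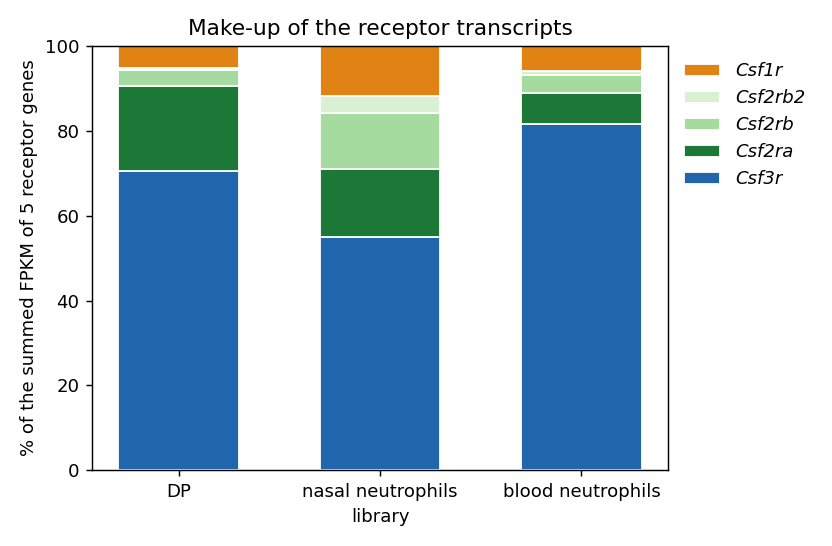
Share of each receptor gene in the summed FPKM of the 5 receptor genes, 1 bar per library, with DP, nasal and blood neutrophils from left to right. Csf3r makes up 70.5%, 54.9% and 81.5%, and the Csf2rb share is 3.75% in DP against 13.2% in nasal neutrophils.

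The receptor genes together summed to 824.5 FPKM in DP, 1105 in nasal and 1448 in blood neutrophils. Csf3r made up 70.5% of that sum in DP, 54.9% in nasal and 81.5% in blood neutrophils, and Csf2ra 20.02%, 16.1% and 7.43%. Csf1r made up 5.14%, 11.8% and 5.93%. So the nasal neutrophil library had the most even make-up, and the DP library the largest Csf2ra share.

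Of the ligand genes, Csf1 was found in all 3 libraries. It stood at 120.9 FPKM in DP, 271.6 in nasal and 11.8 in blood neutrophils. It was 10.3-fold higher in DP and 23.1-fold higher in nasal neutrophils than in blood (log2 differences 3.25 and 4.42), and 2.25-fold lower in DP than in nasal neutrophils (-1.16). In nasal neutrophils it ranked 296 of 23234 genes and was second in the family after Csf3r.

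Csf3 had 26.9 FPKM in DP against 188.3 in nasal neutrophils, with a listed 0 in blood neutrophils. It was 7.01-fold lower in DP than in nasal neutrophils (log2 difference -2.76). No fold is given against blood, where 3 fragments of its 1413-nt transcript would come to about 0.0391 FPKM, a limit for counting error only. Csf1 exceeded Csf3 in both nasal libraries, 4.50-fold in DP and 1.44-fold in nasal neutrophils.

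Csf2 was barely detected, with 0.324 FPKM in DP, 0.171 in nasal neutrophils and a listed 0 in blood neutrophils. At these depths that corresponds to about 14.2 fragments in DP and 1.75 in nasal neutrophils, the second under the 0.293 FPKM that 3 fragments would give. A difference in Csf2 between the nasal libraries was not detectable at this depth. The transcript of the receptor subunit Csf2ra was therefore abundant where that of its ligand was near the floor.

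The nasal libraries also held RNA of nasal tissue, with marker sums higher than in blood neutrophils. Epithelial markers (9 of 9 with a row) summed to 417.8 FPKM in DP, 278.9 in nasal and 1.07 in blood neutrophils, where Epcam, Krt5, Foxj1, Cldn3 and Muc5b were at 0. Olfactory markers (6 of 6) summed to 1865, 1791 and 0.416 FPKM, and all but Obp1a were at 0 in blood. Obp1a made up most of both nasal sums (1073 and 1329 FPKM) and was lower in DP. The remaining olfactory markers were higher in DP, where Gng13 (217.1 against 47.3 FPKM) and Gap43 (49.7 against 9.96 FPKM) passed 4-fold. Over this list, DP exceeded nasal neutrophils by a median log2 difference of 0.80. Stromal and endothelial markers (12 of 12) summed to 29.8, 24.9 and 5.95 FPKM, with Col3a1, Lum, Pdgfra, Cdh5 and Tek at 0 in blood. The higher sum in DP than in nasal neutrophils rested on Dcn (21.7 FPKM in DP and 7.54 in nasal neutrophils). The median log2 difference of the 3 that passed the filter was -0.79 for DP over nasal neutrophils. Pecam1, at 5.90 FPKM, made up nearly all of the blood sum. The part of such cells in Csf1 and Csf3 was not tested. Between the nasal libraries, 6 of 9 epithelial markers were lower in DP. The higher epithelial sum in DP rested on Krt18 (289.7 FPKM in DP and 131.9 in nasal neutrophils), without which it was 128.1 FPKM in DP and 147.0 in nasal neutrophils.

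Markers of other leukocytes were also summed. Eosinophil markers (9 of 9) came to 10.8 FPKM in DP, 16.4 in nasal and 5.98 in blood neutrophils, with Epx and Prg3 at 0 in all 3. The higher sum in nasal neutrophils than in DP rested on Ear2 (0.427 FPKM in DP and 11.5 in nasal neutrophils). Alox15 (7.98 and 2.73 FPKM) and Ccr3 (1.92 and 0.486 FPKM) were higher in DP. T, NK and innate lymphoid markers (10 of 10) came to 15.5, 6.48 and 12.6 FPKM, with Cd4 at 0 in DP. The higher sum in DP than in blood rested on Nkg7 (9.46 FPKM in DP and 2.77 in blood). B cell markers (4 of 4) came to 4.75, 42.8 and 63.1 FPKM and mast cell and basophil markers (8 of 8) to 0.160, 1.74 and 0.234 FPKM, with Fcer1a and Mcpt4 at 0 in all 3. Dendritic cell markers (7 of 7), several of which activated myeloid cells also carry, came to 1113, 1448 and 285.6 FPKM. Clec9a was at 0 in both nasal libraries and Zbtb46 at 0 in blood. The lower dendritic sum in DP than in nasal neutrophils rested on Cd74 (819.9 and 1115 FPKM) and H2-Ab1 (231.8 and 312.8 FPKM). Zbtb46 (0.666 and 1.14 FPKM) was also lower in DP. Itgax (55.4 and 14.3 FPKM), Xcr1 (1.17 and 0.974 FPKM) and Cd209a (4.17 and 3.38 FPKM) were higher there. Over the 5 that passed the filter, DP exceeded nasal neutrophils by a median log2 difference of 0.14.

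**Figure D3:**
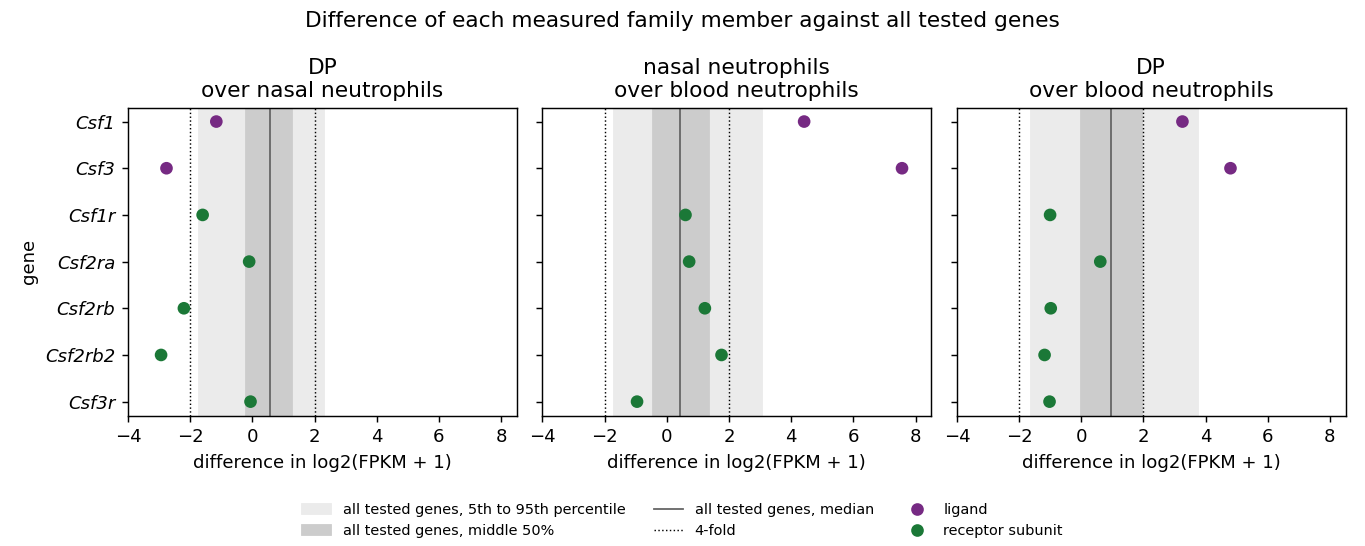
Difference in log2(FPKM + 1) for the 7 members that passed the filter in each comparison, against the 5th to 95th percentile, middle 50% and median of the 10719 tested genes. Dotted lines mark 4-fold. Csf3, Csf2rb and Csf2rb2 lie beyond 4-fold lower in DP than in nasal neutrophils, and Csf1 and Csf3 beyond 4-fold higher in both nasal libraries than in blood.

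For DP over nasal neutrophils, 3 of 7 members were at least 4-fold lower (Csf3, Csf2rb and Csf2rb2) against a background of 3.62% of tested genes, and 0 were at least 4-fold higher against 8.42%. At 2-fold, 5 members were lower (with Csf1 and Csf1r) against 11.3%, and 0 higher against 33.6%. Their median log2 difference was -1.60, where that of all tested genes was 0.57. For nasal over blood neutrophils, Csf1 and Csf3 were at least 4-fold higher against a background of 13.1%, and 0 members were at least 4-fold lower against 3.23%. At 2-fold, 4 were higher (with Csf2rb and Csf2rb2) against 33.5% and 0 lower against 12.8%. The members' median was 1.22 and that of all tested genes 0.41.

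For DP over blood neutrophils, Csf1 and Csf3 were again at least 4-fold higher, where 24.0% of tested genes were, and 0 members were at least 4-fold lower against 3.57%. At 2-fold these 2 stayed the higher ones against 48.6%, and Csf1r, Csf2rb2 and Csf3r were lower against 9.49%. The members' median was -0.98 and that of all tested genes 0.95. With differences centred on the median of all tested genes, 360 genes were at least 4-fold higher and 773 lower for DP over nasal neutrophils, in place of 903 and 388. For nasal over blood neutrophils they were 968 and 609 in place of 1408 and 346, and for DP over blood 1116 and 971 in place of 2577 and 383. The 3 comparisons share libraries and are not independent of one another.

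Among genes downstream of the receptors, feedback inhibitors stood higher in both nasal libraries than in blood. Of 9 feedback and induced target genes, all tested, 6 were at least 4-fold higher in nasal than in blood neutrophils, against 13.1% of all tested genes, and 6 in DP than in blood neutrophils, against 24.0%. In DP, 2 were at least 4-fold lower than in nasal neutrophils, against 3.62%. Cish, a STAT5 target that encodes a SOCS family inhibitor, had 7.71 FPKM in DP, 49.3 in nasal and 0.122 in blood neutrophils. The survival kinase gene Pim1 stood at 113.4, 891.7 and 7.34 FPKM. Both were highest in nasal neutrophils, intermediate in DP and lowest in blood.

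Socs3, which encodes a feedback inhibitor of the G-CSF receptor, had 397.8 FPKM in DP, 1018 in nasal and 58.8 in blood neutrophils. Socs1 had 18.4, 59.7 and 1.91 FPKM in these libraries. Bcl2l1, which encodes the survival protein Bcl-xL, departed from that pattern: it was level in DP and nasal neutrophils, at 212.2 and 212.3 FPKM, and stood at 16.2 FPKM in blood. Socs2, another SOCS gene, also departed from it, with 8.97 FPKM in DP, 7.40 in nasal and 0.554 in blood neutrophils. The median log2 differences of this list were -1.35 for DP over nasal neutrophils, 3.63 for nasal over blood neutrophils and 2.74 for DP over blood neutrophils. Many cytokines other than colony-stimulating factors also induce these genes.

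**Figure D4:**
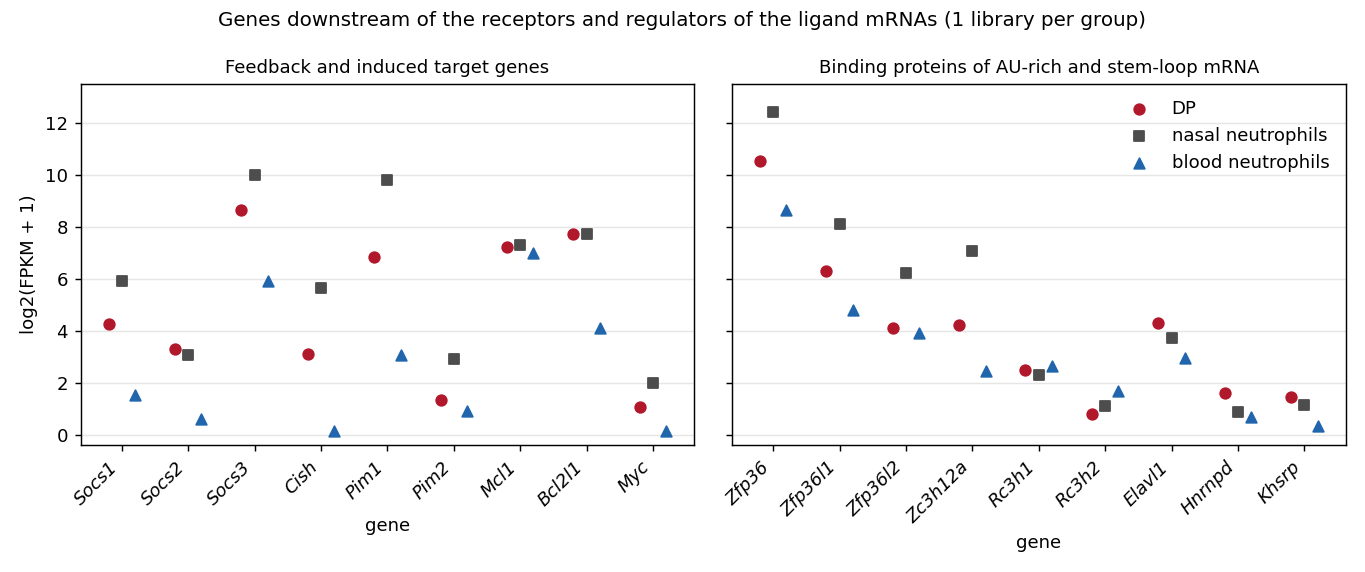
Levels as log2(FPKM + 1) of 9 feedback and induced target genes (left) and 9 genes for binding proteins of AU-rich or stem-loop mRNA (right), 1 point per library, with DP, nasal and blood neutrophils from left to right for each gene. Pim1, Cish, Socs3 and Zfp36 are highest in nasal neutrophils and lowest in blood, whereas Bcl2l1 is level in both nasal libraries.

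Of the receptor-proximal signalling genes all 18 were tested, and 0 were at least 4-fold apart in either direction between DP and nasal neutrophils or between nasal and blood neutrophils. The shares over all tested genes were 8.42% higher and 3.62% lower for DP over nasal neutrophils, and 13.1% higher and 3.23% lower for nasal over blood neutrophils. Jak2, which encodes a kinase of the G-CSF and GM-CSF receptors, was the 1 gene at least 4-fold higher in DP than in blood neutrophils. The share over all tested genes was 24.0%. It stood at 32.2 FPKM in DP, 11.1 in nasal and 4.80 in blood neutrophils. The list medians were -0.39, 0.40 and 0.06 for DP over nasal, nasal over blood and DP over blood neutrophils.

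Of 14 listed inducers of ligand transcription (inflammatory cytokines, their receptors and transcription factors), 12 were tested. In DP, 3 were at least 4-fold lower than in nasal neutrophils, against 3.62% of all tested genes. In nasal neutrophils 6 were at least 4-fold higher than in blood, against 13.1%, and in DP 5 were, against 24.0%, with 0 in the opposite direction in each comparison. The cytokine gene Il1a stood at 376.9 FPKM in DP, 2575 in nasal and 0.154 in blood neutrophils, and Tnf at 60.3, 372.7 and 1.89. Relb, which encodes an NF-kappaB subunit, stood at 5.18, 54.7 and 5.14 FPKM, so that DP and blood were level. Cebpb, which encodes an activator of inflammatory genes, stood at 156.1, 207.7 and 2.71 FPKM and Jun, a component of AP-1, at 191.5, 302.9 and 6.32. The list medians were -1.34, 2.44 and 0.35 in the order of comparisons above.

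Several proteins that bind AU-rich or stem-loop elements destabilise such mRNAs. Of 9 genes for binding proteins, all tested, 2 were at least 4-fold lower in DP than in nasal neutrophils (3.62% of all tested genes), and 4 were at least 4-fold higher in nasal than in blood neutrophils (13.1%). Between DP and blood neutrophils 0 passed 4-fold on the log2(FPKM + 1) scale, where 24.0% of all tested genes were higher and 3.57% lower. By plain FPKM, the low gene Khsrp passed it (1.74 in DP and 0.278 in blood neutrophils). Zfp36, which encodes tristetraprolin, the decay factor of AU-rich cytokine mRNAs, stood at 1464 FPKM in DP, 5423 in nasal and 400.5 in blood neutrophils. Zc3h12a, which encodes the RNase Regnase-1, stood at 17.7, 133.3 and 4.54 FPKM. The Zfp36 relatives Zfp36l1 and Zfp36l2 stood at 78.5, 273.8 and 26.9 FPKM and at 16.2, 74.6 and 14.2 FPKM. The list medians were -0.29, 0.78 and 1.10.

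Of 8 listed regulators of receptor genes and of receptor turnover, 6 were tested, and 0 passed 4-fold between DP and nasal neutrophils. For nasal over blood neutrophils 1 was at least 4-fold higher, against 13.1% of all tested genes, and for DP over blood 2 were, against 24.0%, with 0 lower. With 6 genes these counts are near those shares. Spi1, which encodes PU.1 and is listed under an older symbol, stood at 483.2 FPKM in DP, 611.7 in nasal and 460.6 in blood neutrophils. Cebpe, which encodes a factor of late granulocyte maturation, stood at 39.1, 12.9 and 5.79 FPKM and was at least 4-fold higher in DP than in blood. Elane, which encodes neutrophil elastase, had 8.59 FPKM in DP and 8.91 in nasal neutrophils, with a listed 0 in blood. The list medians were -0.04, 0.97 and 0.90.

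Other ligands and receptors of these families were scarce, and 3 of 9 listed genes were tested. On the log2(FPKM + 1) scale 0 passed 4-fold in any comparison, which over so few genes is near the shares above. That scale understates differences of such low genes. By plain FPKM, the ratio of Il3ra was 0.0582 for DP over nasal neutrophils and 9.79 for nasal over blood neutrophils. That of Kit was 7.76 for nasal over blood neutrophils. Il3, whose product is the ligand served by the Csf2rb2 subunit, was listed at 0 in all 3 libraries. Il3ra, which encodes the alpha subunit that pairs with it, stood at 0.212 FPKM in DP, 3.64 in nasal and 0.372 in blood neutrophils. Il34, which encodes the second ligand of the Csf1 receptor, had 0.133 FPKM in DP and 0.422 in nasal neutrophils, with a listed 0 in blood. The list medians were -1.27, 1.76 and -0.13.

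The genes most like each member were sought by distance over the 3 log2(FPKM + 1) values, among 9796 other genes above 0 in all libraries. Over so few libraries this describes levels only. Nearest to Csf2rb were Ptafr, which encodes the receptor for platelet-activating factor (distance 0.31), and Map2k3 (0.32). Nearest to Csf2rb2 were Parp10 (0.28) and Mafk (0.35), and to Csf2ra Atp5b (0.25) and Unc93b1 (0.28). Csf3r lay nearest to the leukocyte surface gene Cd53 (0.40) and Itm2b (0.43), and Csf1r to Mefv (0.43) and Prkcd (0.48). Csf1 had 0 genes within a distance of 0.5, and its nearest were Ets2 (0.65) and Klf2 (0.67).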

How the data were processed

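Per the file headers and the submitters' processing notes, the deposited values are FPKM per gene, made by the authors with TopHat2 2.0.8, Bowtie2 2.1.0 and Cufflinks 2.1.1 on the mm9 mouse genome; no source used here gives their settings, annotation or strand. Libraries were made with a low-input RNA kit, per the labels. From these values, 1 library per group, differences in log2(FPKM + 1) were computed over genes with a mean of 1 FPKM or more, and a gene was counted at 4-fold (a log2 difference of 2) or 2-fold. No count model, p-value or SD was possible. Values above 0 and below 1e-06 FPKM (20 to 43 per library) were set to 0. Depth was read from the steps between low values, given length, over genes with 1 transcript of more than 1500 nt and within 6% of the step; it is approximate (DP had 58 genes at the step and 18 at 0.5 of it, nasal neutrophils 69 and 7, blood neutrophils 48 and 3). Fragment numbers use the longest coding transcript.

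The members, the 6 gene lists, the 10 marker lists, the motifs and the steps were chosen with earlier results of these data known. Named were all 8 members, list genes at 4-fold (up to 4 per list and comparison) and the 2 nearest genes of each member above 0 in all libraries. Spi1, Il3, Il3ra, Il34 and Socs2 lie outside that rule and were picked with their values already known. Transcripts, lengths and 3′ UTRs came from GENCODE M21 (GRCm38), another build than mm9, matched by symbol or older symbol for 98.7% of tested genes. Alternatives were pseudocounts of 0.1 and 5, no filter, a mean of 5 FPKM, rescaling to a sum of 1000000, median centring, upper-quartile scaling, correction in 20 length bins, omission of genes at 0, and 2-fold. Added after seeing the data were the sum of the beta genes, the marker sums without Krt18 or Ly6c2, and the single marker values beside other sums. Difference and count steps were tested on simulated data. Python 3.11.15, pandas 2.3.3, numpy 2.4.6, Biopython 1.88 and matplotlib 3.10.9 were used.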

Additional observations from a re-analysis of the deposited data

How the results depend on the processing

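Over the alternatives, 199 of 205 member differences kept their direction and their side of 4-fold. Use of no filter, a mean of 5 FPKM or omission of genes at 0 leaves a member's difference unchanged by construction. The beta sum changes that of Csf2rb alone. The 199 therefore include differences that could not move, and overstate how stable the values are. Csf1r in DP over nasal neutrophils passed 4-fold with median centring (-2.18) and upper-quartile scaling (-2.25), and Csf2rb2 in DP over blood neutrophils with centring (-2.13), which left 1 member at least 4-fold lower there in place of 0. Csf3r in DP over nasal neutrophils turned to 0.21 with length correction, and Csf2ra in DP over blood neutrophils to -0.34 with centring and -0.23 with upper-quartile scaling, so those directions rest on the scaling. Csf2, under the filter, got no difference. At 2-fold, 5 members were lower in DP than in nasal neutrophils, 4 were higher in nasal than in blood neutrophils and 3 were lower in DP than in blood neutrophils. Without genes at 0, Csf3 dropped out and 1 member stayed higher in each comparison with blood. With the beta genes summed, 2 members were at least 4-fold lower in DP than in nasal neutrophils. Counts of all tested genes at least 4-fold apart depended on the scale. With a pseudocount of 5 FPKM, in place of 903 and 388, 441 were higher and 203 lower in DP than in nasal neutrophils; for nasal over blood neutrophils they were 470 and 215 in place of 1408 and 346. For DP over blood, 941 in place of 2577 were higher. With a pseudocount of 0.1, 1390 and 2886 were higher in the first and second comparison. With upper-quartile scaling, 350 were higher and 734 lower in DP than in nasal neutrophils, and 1594 and 788 in DP than in blood. A mean of 5 FPKM or more left 1630 higher in DP than in blood. Centred and 2-fold counts stand with the comparisons. No paired analysis was possible because each group is 1 library, and no library could be left out. Depth limits Csf2. The 0 of Csf3 in blood lies in a library about as deep as that of DP, but a listed 0 may be a failed estimate. The counts of Csf3 as higher than in blood rest on that 0.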
